A study of Mus musculus with 7 samples.

Results

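The 49 genes described here act in DNA replication and cell division, and their levels were read on the 7 arrays of a study of mouse fibroblasts, induced hepatocyte-like cells and hepatocytes. A probe belonged to the set where its name in the scanner files, or the current symbol of its transcript accession, was on a list of 49 gene symbols. The rule uses no measured value, although the list was drawn up with earlier results of these data known. The arrays held 80 probes for these 49 genes, out of 41138 usable probes and 27583 genes and unnamed probes. By role, 14 genes serve replication and the supply of nucleotides, 7 serve entry into S phase and its transcription, 22 serve mitosis and 6 serve checkpoints. All 49 were among the 19135 genes tested, since each was well above background on every iHep and every MEF array, while 6 of them had no probe well above background on the hepatocyte array.

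A cell that is about to copy its DNA loads the Mcm helicase onto origins with the help of Cdc6 and Cdt1, and geminin then holds Cdt1 back so that no origin is loaded again. Cyclin E, whose genes the E2F transcription factors activate, starts S phase together with Cdk2. Cyclin B with Cdk1, the Polo and Aurora kinases and the spindle motors carry out mitosis. In resting cells a repressor complex known as DREAM holds the promoters of both programmes down, through E2F sites in replication genes and through CHR elements in mitotic genes, and B-Myb (Mybl2) and Foxm1 take its place on the mitotic promoters of dividing cells. Hepatocytes of the adult liver are mostly at rest and re-enter the cycle after injury, whereas fibroblasts from embryos divide in culture.

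The iHep group held 3 arrays, 1 for each of 3 types of hepatocyte-like cells that had been made from MEFs and that the labels call 4α1, 4α2 and 4α3. Forced expression of transcription factors moves such fibroblasts towards the hepatocyte, and the published work is remembered for pairing Hnf4a with a Foxa protein. The sources used here do not say what the last digit of a type means or whether a type is a clone or a pool. The hepatocyte group was 1 array of hepatocytes from adult mouse liver, with no replicate and no stated age. Both were set against 3 arrays of embryonic fibroblasts (MEF), each prepared on its own from embryos at 13.5 days post coitum. All cells had the C57BL/6 background, and total RNA from each was labelled with Cy3 and hybridised alone.

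The upper quartile (75th percentile) of signal was lowest for hepatocytes, at 608.3, and highest for MEF 2, at 1484, and the share of probes well above background was 60.2% to 68.7%. Levels below are log2 signal relative to that quartile of the same array, which is 0 on this scale, and they are set against each other only within 1 gene. MEF 2 and MEF 3 differed by less than repeated spots on an array do and were averaged as 1 sample, which leaves n = 2 for MEF beside n = 3 for iHep and n = 1 for hepatocyte. Slide 1 held the 3 iHep arrays and MEF 1, slide 2 held MEF 2 and MEF 3, and slide 3 held the hepatocyte array alone, so slide and cell type cannot be told apart for hepatocytes. Of 11 hepatocyte markers, 8, 10 and 10 were well above background in iHep types 4α1, 4α2 and 4α3. On the hepatocyte array 11 of 11 were, and on the MEF arrays 2, 4 and 4. Their median level was -0.55, -1.17 and -0.87 in the iHep types, against 8.35 in hepatocytes and -8.52 to -7.81 in MEFs. All 10 fibroblast markers were well above background in every iHep type too. Changes are given as log2 change ± standard error from limma, and a gene was called where its p, adjusted over all 19135 genes, was under 0.05. Nothing says that the samples of a group came from separate cultures beyond the MEF preparations, so the p-values reflect sample-to-sample spread alone, and in iHep cells that means spread from type to type.

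Promoters of 40 of the 49 genes were in the RefSeq table of build GRCm38.p6, as 42 windows of 300 bases that run from 250 bases before to 50 after a start site. They are described because replication and mitotic genes differed in how far they fell in hepatocytes, and 6 are printed: the pair of replication genes and the pair of mitotic genes with the lowest fitted hepatocyte minus MEF change among those with a promoter in the table, with Cdk4 and Ccnb1. Capitals mark 3 motifs searched on both strands, which are E2F (TTTCCCGC, TTTCGCGC, TTTGCCGC or TTTGGCGC), the CCAAT box (CCAAT) and the CHR (TTTGAA). The windows are chr8:75109259-75109558 on the plus strand for Mcm5, chr11:98907901-98908200 on the plus strand for Cdc6, chr9:61946750-61947049 on the minus strand for Kif23, chr7:122159185-122159484 on the plus strand for Plk1, chr10:127063285-127063584 on the plus strand for Cdk4 and chr13:100786437-100786736 on the minus strand for Ccnb1. Each is written 5′ to 3′ along its gene.
Mcm5: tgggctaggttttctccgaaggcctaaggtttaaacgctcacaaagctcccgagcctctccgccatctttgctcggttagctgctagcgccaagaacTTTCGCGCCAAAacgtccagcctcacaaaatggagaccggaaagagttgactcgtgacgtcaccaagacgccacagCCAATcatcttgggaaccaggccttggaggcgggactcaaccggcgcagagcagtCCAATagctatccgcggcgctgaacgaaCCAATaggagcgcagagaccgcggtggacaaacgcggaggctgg
Cdc6: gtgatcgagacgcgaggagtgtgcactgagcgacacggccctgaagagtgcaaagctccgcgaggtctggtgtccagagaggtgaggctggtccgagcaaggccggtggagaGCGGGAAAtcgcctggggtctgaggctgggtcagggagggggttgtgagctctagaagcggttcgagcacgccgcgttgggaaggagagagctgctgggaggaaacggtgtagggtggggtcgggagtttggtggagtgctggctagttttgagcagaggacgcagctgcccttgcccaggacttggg
Kif23: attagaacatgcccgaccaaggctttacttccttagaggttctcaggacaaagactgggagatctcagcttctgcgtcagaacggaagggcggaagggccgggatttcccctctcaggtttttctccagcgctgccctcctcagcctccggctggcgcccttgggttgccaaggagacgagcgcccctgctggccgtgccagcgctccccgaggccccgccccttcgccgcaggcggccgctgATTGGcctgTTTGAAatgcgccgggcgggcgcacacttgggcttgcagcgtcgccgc
Plk1: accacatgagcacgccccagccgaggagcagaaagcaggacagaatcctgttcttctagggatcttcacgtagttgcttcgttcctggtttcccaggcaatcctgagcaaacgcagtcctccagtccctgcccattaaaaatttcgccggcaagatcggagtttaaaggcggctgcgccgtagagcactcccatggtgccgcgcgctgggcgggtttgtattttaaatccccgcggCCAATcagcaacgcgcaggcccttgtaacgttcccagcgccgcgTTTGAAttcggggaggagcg
Cdk4: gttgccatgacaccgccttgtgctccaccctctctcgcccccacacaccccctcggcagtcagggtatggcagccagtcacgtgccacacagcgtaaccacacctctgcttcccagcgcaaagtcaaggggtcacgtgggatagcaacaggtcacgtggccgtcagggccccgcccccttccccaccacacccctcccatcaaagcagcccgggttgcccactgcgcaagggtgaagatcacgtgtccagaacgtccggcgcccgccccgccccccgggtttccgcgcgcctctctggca
Ccnb1: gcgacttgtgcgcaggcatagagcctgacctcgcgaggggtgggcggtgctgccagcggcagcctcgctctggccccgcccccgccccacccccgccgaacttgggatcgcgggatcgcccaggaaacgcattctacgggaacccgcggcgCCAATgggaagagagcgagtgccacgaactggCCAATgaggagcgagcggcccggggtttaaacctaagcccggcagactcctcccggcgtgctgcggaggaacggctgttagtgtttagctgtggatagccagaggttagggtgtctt
Mcm5 held 2 overlapping E2F matches, 1 on each strand, and 3 CCAAT boxes, and Cdc6 held 1 E2F match alone. Kif23 and Plk1 each held 1 CCAAT box followed by 1 CHR. Ccnb1 held 2 CCAAT boxes and no CHR, and Cdk4 held none of these letters in the window.

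The motifs were spread unevenly over the roles. An E2F match stood in 6 of 13 promoters of replication genes (46.2%) and in 1 of 18 of mitotic genes (5.56%), against 2.26% of all 32851 promoters in the table. A CHR stood in 13 of 18 promoters of mitotic genes (72.2%) and in 1 of 13 of replication genes (7.69%), against 17.9% of all promoters. A CCAAT box was in 16 of 18 mitotic promoters (88.9%) and 9 of 13 replication promoters (69.2%), against 37.4% of all, and every mitotic promoter with a CHR held a CCAAT box too (13 of 18, against 6.95% of all). Of the checkpoint promoters, 4 of 6 held a CCAAT box and 2 a CHR, and of the promoters for S phase entry, 1 of 5 held an E2F match and a CCAAT box. A match is a string of letters and not a measured binding site, and the absence of a match says only that these letters are not in the window.

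**Figure D1:**
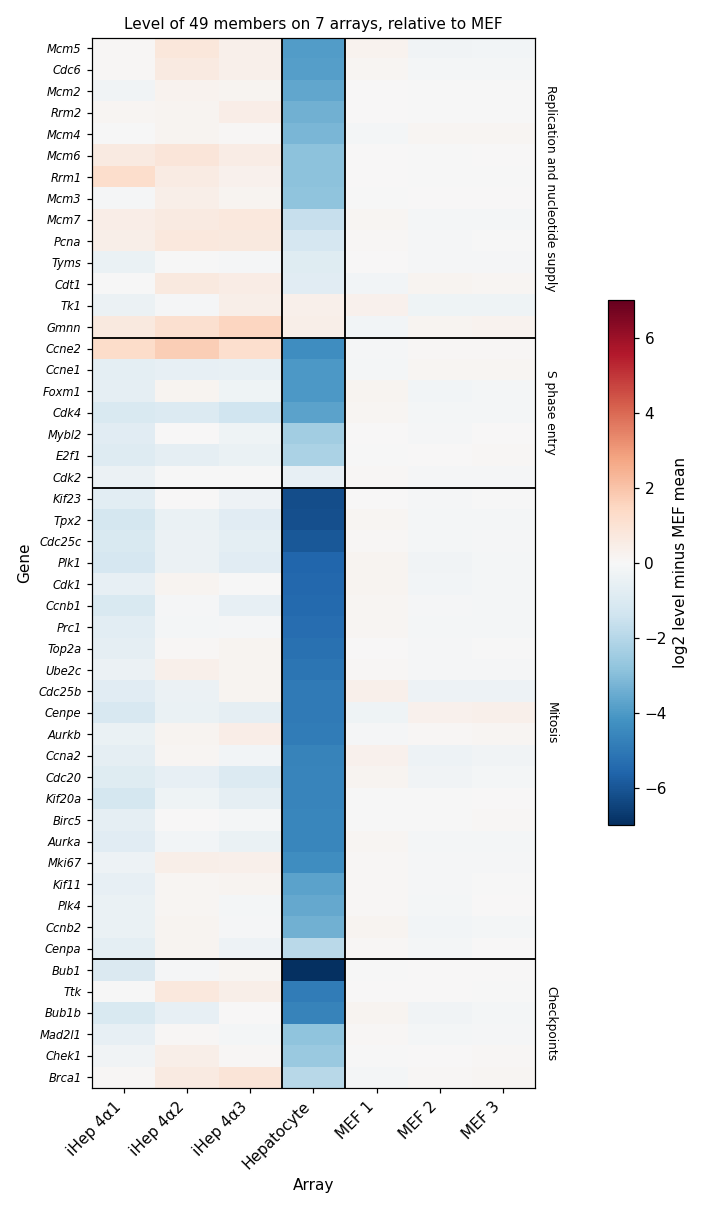
Level of each of the 49 genes on each of the 7 arrays, as log2 level minus the MEF mean of that gene (colour scale from -7, blue, to 7, red). Rows are genes, grouped by role and ordered within a role by hepatocyte minus MEF, and columns are the 3 iHep types, the hepatocyte array and the 3 MEF arrays. The hepatocyte column is blue for 47 of 49 genes, and the iHep columns stay within -1.41 and 1.74 of the MEF mean.

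The comparison of iHep cells with MEFs asks how the cell division programme of the converted cells stands beside that of the cells they came from. Of the 49 genes, 1 was called higher in iHep cells, Ccne2, where 10.1% of all genes were, and 1 was called lower, Cdk4, where 13.2% of all genes were. The other 47 were not called. The median change was -0.16, against -0.04 over all genes tested, with 19 genes above 0 and 30 below. At an unadjusted p under 0.05, 5 of the 49 were higher (Pcna, Mcm6, Mcm7, Gmnn and Ccne2), where 16.9% of all genes were. At that threshold 7 were lower (Ccne1, Cdk4, E2f1, Cdc20, Cdc25c, Plk1 and Tpx2), where 21.3% of all genes were. When the 3 MEF arrays were counted as 3 samples, 5 were called higher (16.5% of all genes) and 6 lower (21.7%). With the arrays of slide 1 alone none was called in either direction, where 3.94% of all genes were called higher and 4.79% lower.

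Ccne2 encodes cyclin E2, a partner of Cdk2 at the start of S phase, and its probe lies at chr4:11130171-11130230 (build mm8, the annotation of the array). Its level was -1.36, -0.92 and -1.47 in iHep types 4α1, 4α2 and 4α3, against -2.74, -2.57 and -2.57 in MEF 1, 2 and 3. Every iHep array stood above every MEF array, and Ccne2 was 2.65-fold higher in iHep cells (1.40 ± 0.24, adjusted p = 0.0168). Within slide 1 the change was 1.49 ± 0.33 with an adjusted p of 0.0825, and without MEF 1 it was 1.32 with an adjusted p of 0.104, so with either set of fewer samples Ccne2 was not called. The hepatocyte array read -6.99, which was not well above background.

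Cdk4, the kinase that D cyclins activate in G1, has its probe at chr10:126467860-126467919 in mm8. It stood at 2.77, 2.89 and 2.42 in the 3 iHep types, against 3.98, 3.67 and 3.68 in the MEF arrays. The groups did not overlap, and Cdk4 was 2.20-fold lower in iHep cells (-1.14 ± 0.23, adjusted p = 0.0276). This call was lost within slide 1 (-1.29, adjusted p = 0.0913) and without MEF 1 (-0.99, adjusted p = 0.144), iHep 4α1 (-1.18, adjusted p = 0.0757) or iHep 4α2 (-1.24, adjusted p = 0.0542).

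The other genes of S phase entry lay at or below the MEF level in iHep cells, and none of them was called. Ccne1, which encodes cyclin E1, read 2.89, 3.02 and 3.07 in iHep cells against 3.44, 3.70 and 3.74 in MEFs (-0.59 ± 0.19, adjusted p = 0.0872). The paired cyclins of Cdk2 thus differed in sign, with Ccne1 below and Ccne2 above every MEF array. E2f1, an activator of S phase genes, read -0.45, -0.22 and -0.02 in iHep cells against 0.40, 0.44 and 0.50 in MEFs (-0.66 ± 0.21, adjusted p = 0.0800). The iHep arrays of E2f1 lay below all 3 MEF arrays. Cdk2 stood at -3.66, -3.31 and -3.31 against -3.18, -3.36 and -3.33 in MEFs (-0.16 ± 0.21), with overlapping groups. Foxm1, a transcription factor of mitotic genes, read -0.29, 0.55 and 0.04 in iHep cells against 0.51, 0.17 and 0.18 in MEFs (-0.24 ± 0.31), also with overlap, and Mybl2 changed by -0.36 ± 0.29.

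None of the 14 genes of replication and nucleotide supply was called, although 12 had a positive change and the median was 0.38. At an unadjusted p under 0.05, 4 were higher and 0 lower (16.9% and 21.3% of all genes). In 6 of them every iHep array stood above every MEF array (Pcna, Mcm6, Mcm7, Gmnn, Rrm1 and Rrm2), and this held for 7 of the 49 genes, where 24.9% of all genes did so. Gmnn encodes geminin, the inhibitor of Cdt1, and had the largest change of the class: 3.04, 3.48 and 3.89 in iHep types 4α1, 4α2 and 4α3 against 2.17, 2.54 and 2.59 in MEFs (1.1 ± 0.32, adjusted p = 0.0667). The iHep range of Gmnn began above the highest MEF array. Rrm1, the large subunit of ribonucleotide reductase, read 4.67, 3.98 and 3.72 in iHep cells against 3.43, 3.42 and 3.42 in MEFs (0.70 ± 0.33, adjusted p = 0.190). Here type 4α1 was the highest, and the MEF arrays agreed within 0.01.

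Pcna, the sliding clamp of DNA polymerase, read 4.39, 4.72 and 4.66 in iHep cells against 4.06, 3.92 and 3.95 in MEFs (0.59 ± 0.20, adjusted p = 0.0904). The groups did not overlap. The helicase subunits Mcm2 to Mcm7 changed by 0.05 to 0.68, the highest being Mcm6 (0.68 ± 0.19, adjusted p = 0.0634) and the lowest Mcm2. Mcm2 read 1.34, 1.85 and 1.78 in iHep cells against 1.65, 1.56 and 1.58 in MEFs, and Mcm5 read 2.21, 2.91 and 2.49 against 2.35, 1.86 and 1.91 in MEFs. The iHep and MEF arrays overlapped for both. Cdc6, a loader of the helicase, stood at -1.54, -0.99 and -1.25 in iHep cells against -1.5, -1.74 and -1.77 in MEFs (0.37 ± 0.24), and its partner Cdt1 changed by 0.39 ± 0.29.

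The pair of genes with a negative change both serve thymidylate supply. Tyms, thymidylate synthase, read 2.31, 2.72 and 2.69 in iHep cells against 2.82, 2.70 and 2.71 in MEFs (-0.19 ± 0.21). Tk1, thymidine kinase, read 1.5, 1.86 and 2.35 in iHep cells against 2.24, 1.61 and 1.61 in MEFs (-0.02 ± 0.35). In both genes the iHep and MEF arrays overlapped, and MEF 1 stood above MEF 2 and MEF 3.

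Among the 22 mitotic genes 0 were called in limma in either direction, the median was -0.29, and 19 had a negative change. At an unadjusted p under 0.05, 0 were higher and 4 lower (Cdc20, Cdc25c, Plk1 and Tpx2), where 16.9% and 21.3% of all genes were. Every iHep array lay below every MEF array in 7 of them (Cdc20, Cdc25c, Plk1, Aurka, Kif20a, Tpx2 and Cenpe), and in 10 of the 49 genes with Ccne1, Cdk4 and E2f1, where 31.3% of all genes did so. Tpx2, which activates Aurora A on the spindle, had the lowest change: 0.61, 1.35 and 1.0 in iHep cells against 1.95, 1.71 and 1.69 in MEFs (-0.84 ± 0.28, adjusted p = 0.0919). Cdc20, the activator of the anaphase-promoting complex, read 3.18, 3.49 and 3.06 in iHep cells against 4.22, 3.82 and 3.91 in MEFs (-0.80 ± 0.23, adjusted p = 0.0662). For Tpx2 and Cdc20 alike the highest iHep array stayed under the lowest MEF array.

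Mki67, the proliferation marker Ki-67, had the highest change of the mitotic genes, 0.15 ± 0.29, from levels of 2.44, 3.19 and 3.11 in iHep cells against 2.84, 2.69 and 2.71 in MEFs. Type 4α1 lay below all MEF arrays of Mki67, and types 4α2 and 4α3 lay above them. Top2a, the topoisomerase that untangles sister DNA, showed the same split, at -0.28, 0.41 and 0.54 in iHep cells against 0.40, 0.27 and 0.33 in MEFs (-0.13 ± 0.30). Aurkb, the Aurora kinase of the chromosomal passenger complex, read -0.90, -0.22 and 0.01 in iHep cells against -0.53, -0.35 and -0.32 in MEFs (0.06 ± 0.32). Ccnb1, cyclin B1, read -0.56, 0.47 and -0.05 in iHep cells against 0.65, 0.44 and 0.40 in MEFs (-0.58 ± 0.35). Its kinase Cdk1 read 1.25, 2.06 and 1.81 in iHep cells against 2.03, 1.64 and 1.72 in MEFs (-0.15 ± 0.31). The iHep and MEF arrays overlapped for Aurkb, Ccnb1 and Cdk1, and type 4α1 was the lowest of the iHep and MEF arrays in each. The remaining mitotic genes changed by -0.79 (Plk1) to 0.06 (Ube2c).

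The 6 checkpoint genes had a median change of -0.08 with 3 on each side of 0, and none was called or passed an unadjusted p of 0.05. Brca1, which acts in repair of double-strand breaks, was the highest at 0.54 ± 0.29, with -0.80, -0.25 and -0.01 in iHep cells against -1.0, -0.80 and -0.77 in MEFs. Bub1b, the spindle checkpoint kinase BubR1, was the lowest at -0.55 ± 0.37, with -0.88, -0.39 and 0.22 in iHep cells against 0.38, -0.02 and 0.07 in MEFs. In both genes type 4α3 was the highest iHep array and the groups overlapped. Ttk, the checkpoint kinase Mps1, read -3.19, -2.42 and -2.76 in iHep cells against -3.17, -3.14 and -3.21 in MEFs (0.38 ± 0.28), and Bub1 read -0.99, -0.08 and 0.12 against -0.04, 0.03 and 0.04 in MEFs (-0.32 ± 0.38). Chek1, the kinase that answers stalled replication, changed by 0.08 ± 0.25, and Mad2l1, the checkpoint protein Mad2, by -0.23 ± 0.26.

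**Figure D2:**
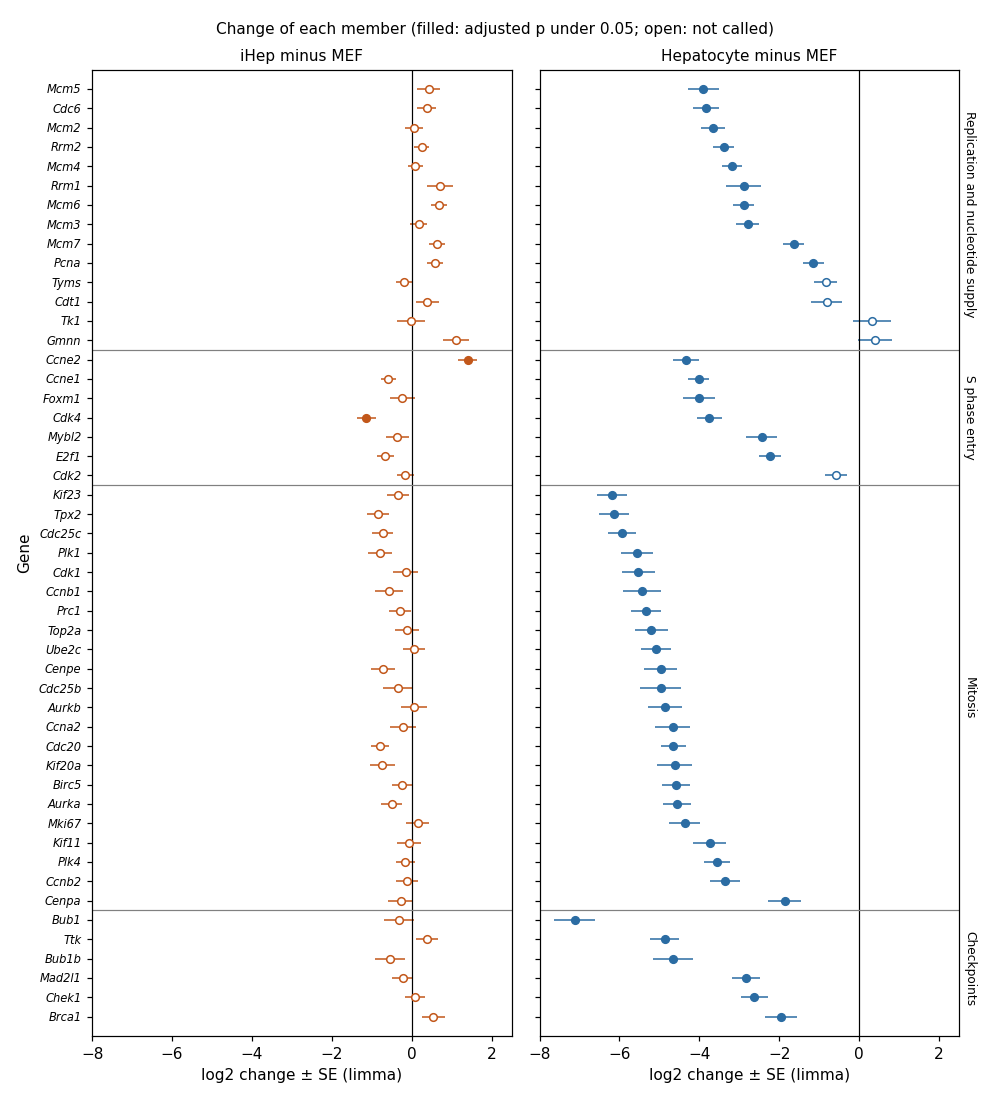
Log2 change ± SE from limma of each of the 49 genes, iHep minus MEF on the left and hepatocyte minus MEF on the right, on 1 shared scale. Filled points passed an adjusted p of 0.05 and open points did not. On the left 2 points are filled, Ccne2 at 1.40 and Cdk4 at -1.14, and on the right 44 are filled, all of them below 0.

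The iHep types were not alike in these genes, and with 1 array each the differences among them were not tested. Type 4α1 was the lowest of the 3 types in 44 of the 49 genes, where it was the lowest in 25.1% of all genes, and it was the highest only in Rrm1 (33.7% of all genes). Type 4α2 was the highest in 34 genes (27.7% of all genes) and the lowest in 0 (34% of all genes), and type 4α3 was the highest in 14 (38.6%) and the lowest in 5 (40.9%), which were Mcm6, Rrm1, Ccne2, Cdk4 and Cdc20. The count of 44 genes was the same after quantile normalization and in the authors' deposited table. Set beside MEF 1 on the same slide, the median of the 49 genes was -0.64 in type 4α1, 0.03 in type 4α2 and -0.13 in type 4α3, and over all genes tested it was -0.05, -0.09 and -0.06.

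The distance between the types was smaller for replication genes than for the other roles. Relative to MEF 1, the median of mitotic genes was -0.79 in type 4α1, -0.07 in type 4α2 and -0.28 in type 4α3. For replication genes the medians were 0.11, 0.51 and 0.27 in the same order of types. They were -0.79, -0.13 and -0.37 for S phase entry and -0.46, 0.2 and 0.14 for checkpoints. All 22 mitotic genes in type 4α1 lay below every MEF array, as did 8 in type 4α2 and 12 in type 4α3. Of the 49 genes, 36, 13 and 19 were below every MEF array in types 4α1, 4α2 and 4α3, where 43.1%, 44.7% and 43.3% of all genes were. Above every MEF array were 7, 27 and 22 of the 49, where 37.4%, 37.1% and 38% of all genes were. Genes over 2-fold lower than in MEF 1 numbered 9 in type 4α1 (16.8% of all genes), and these were Cdk4, Ccnb1, Cdc20, Cdc25b, Cdc25c, Plk1, Kif20a, Tpx2 and Bub1b. In type 4α2 only Cdk4 passed that fold (17.2% of all genes), and in type 4α3 Cdk4 and Cdc20 did (18.2%). Ccne2 was over 2-fold higher than in MEF 1 in all 3 types, with Rrm1 in type 4α1 and Gmnn in types 4α2 and 4α3 (15.5%, 16.7% and 16.5% of all genes were higher by that fold). Summed log2 levels of fibroblast markers were 7.27, 7.37 and 5.77 in types 4α1, 4α2 and 4α3, against 9.69 to 9.81 in MEFs, with type 4α3 the lowest. Those of 7 endothelial markers were 1.21, -2.16 and -1.79 in the same types, against 0.92 to 1.60 in MEFs. Type 4α1 was the highest type by this sum, but only 2 of the 7 were well above background on each iHep array. By the median level of the 7, at -7.18, -7.55 and -7.16, type 4α1 was not the highest. Whether either set of markers bears on the order of the types was not tested.

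**Figure D3:**
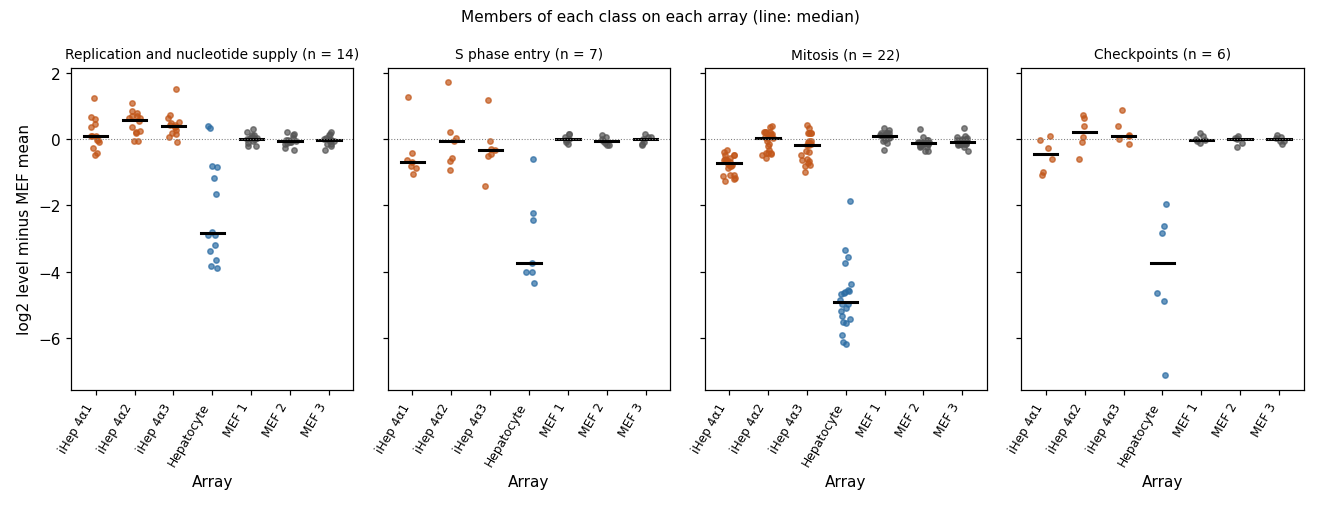
Log2 level minus the MEF mean of each gene on each array, with 1 panel per role, where points are genes and black lines are medians. The mitosis median is -0.71 in iHep type 4α1, 0.05 in type 4α2, -0.17 in type 4α3 and -4.91 on the hepatocyte array, and the replication median is 0.09, 0.60, 0.40 and -2.84 on the same arrays.

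Hepatocytes from adult liver stood below MEFs for nearly all of the 49 genes. Of the 49 genes, 44 were called lower in hepatocytes, where 25.1% of all genes were, and 0 were called higher in limma, where 28.4% of all genes were. At an unadjusted p under 0.05, 45 were lower and 0 higher (28.4% and 32.3% of all genes). The median change was -3.90, or -3.70 with the 6 genes not measured above background in hepatocytes at their bounds (set by the lowest level well above background), against 0.14 and 0.16 over all genes, and the 5 genes not called were Cdt1, Gmnn, Tyms, Tk1 and Cdk2. The hepatocyte array lay below every MEF array for 47 of 49 genes (43.2% of all genes). The comparison rests on 1 hepatocyte array, whose spread was taken to equal that of iHep cells and MEFs. In bulk RNA, fewer dividing cells and less RNA of these genes per cell cannot be told apart.

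All 22 mitotic genes fell in hepatocytes, with a median change of -4.91, or -4.77 with Cdc25c, Plk4 and Kif11 at their bounds and Kif23 by its measured probe. Among those measured above background in hepatocytes the changes ran from -6.14 (Tpx2) to -1.87 (Cenpa). The brighter of both probes of Kif23, a motor of the central spindle in cytokinesis, read -0.05, 0.75 and 0.37 in iHep cells and -5.48 on the hepatocyte array, against 0.75, 0.62 and 0.69 in MEFs. That hepatocyte value was not well above background, and this probe was called lower in hepatocytes than in MEFs (adjusted p = 0.000422). The other probe of Kif23 was well above background on all 7 arrays, at -0.64, 0.26 and 0.01 in iHep cells and -5.28 in hepatocytes, against 0.26, 0.28 and 0.28 in MEFs, and was 47.0-fold lower in hepatocytes than in MEFs. Tpx2 was well above background on the hepatocyte array, at -4.32 against 1.95, 1.71 and 1.69 in MEFs, and was 70.7-fold lower (-6.14 ± 0.37, adjusted p = 0.000409). Plk1, the Polo kinase that drives mitotic entry, read -2.21 on the hepatocyte array against 3.54, 3.13 and 3.22 in MEFs, a 47.4-fold difference (-5.57 ± 0.40, adjusted p = 0.000572). All these hepatocyte values lay well under the lowest of the other 6 arrays.

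The general markers of proliferating cells fell with them. Mki67 read -1.60 in hepatocytes against 2.84, 2.69 and 2.71 in MEFs, 20.7-fold lower (-4.37 ± 0.39, adjusted p = 0.00105). Top2a read -4.85 in hepatocytes against 0.40, 0.27 and 0.33 in MEFs, 36.8-fold lower (-5.20 ± 0.41, adjusted p = 0.000716). Cdk1 was 46.1-fold lower (-5.53 ± 0.41), and its cyclins Ccnb1 and Ccnb2 were 43.2-fold and 10.2-fold lower. Ccnb2 read 2.51, 3.20 and 2.90 in iHep cells and -0.37 in hepatocytes, against 3.17, 2.79 and 2.83 in MEFs. The smallest fall of the mitotic genes was that of Cenpa, the histone H3 variant of centromeres, at -0.17, 0.73 and 0.15 in iHep cells and -1.35 in hepatocytes against 0.58, 0.40 and 0.53 in MEFs (3.65-fold lower, adjusted p = 0.0167). The call for Cenpa was lost without MEF 1 and with the arrays of 1 scan day, an alternative chosen after seeing the data. Both settings leave MEF with 1 sample.

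The replication genes fell less far, with 10 of 14 called lower and a median of -2.84. Mcm5 fell the most, at -1.78 in hepatocytes against 2.35, 1.86 and 1.91 in MEFs (14.9-fold, -3.90 ± 0.39, adjusted p = 0.00149), followed by Cdc6 at -5.46 against -1.5, -1.74 and -1.77 (14.2-fold, adjusted p = 0.000880). Both promoters are printed above with their E2F matches. Mcm2 was 12.6-fold lower, at -2.05 in hepatocytes. Within the Mcm helicase the fall differed between subunits, from 14.9-fold for Mcm5 to 3.11-fold for Mcm7 (-1.64 ± 0.26, adjusted p = 0.00603). Pcna, at 2.84 in hepatocytes, was 2.23-fold lower (-1.15 ± 0.26, adjusted p = 0.0175), a call that was lost without MEF 1 and on 1 scan day. Rrm1 and Rrm2, the subunits of ribonucleotide reductase, were 7.41-fold and 10.5-fold lower.

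The remaining 4 replication genes were not called. Gmnn stood at 2.77 in hepatocytes, above all 3 MEF arrays and below all 3 iHep arrays (0.40 ± 0.43 relative to MEFs). Tk1 stood at 2.25, within 0.01 of MEF 1 and above MEF 2 and MEF 3 (0.32 ± 0.47). Tyms at 1.92 and Cdt1 at 1.69 lay below every MEF array (-0.84 ± 0.29, adjusted p = 0.0576, and -0.81 ± 0.39, adjusted p = 0.138). Tyms was called lower under 5 of the alternatives, among them quantile normalization and the authors' table.

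Of the 7 genes of S phase entry, 6 were called lower in hepatocytes, with a median of -3.75, or -3.10 with Ccne2 at its bound. Ccne1 read -0.44 in hepatocytes and was 16.2-fold lower than in MEFs (-4.02 ± 0.26, adjusted p = 0.000449), and Ccne2, which was not well above background there, was at least 8.60-fold lower. Foxm1 read -3.67 and was 16.1-fold lower, Cdk4 read 0.08 and was 13.4-fold lower (-3.75 ± 0.31, adjusted p = 0.000860), and E2f1 read -1.79 and was 4.68-fold lower. Mybl2, which encodes B-Myb, was 5.43-fold lower. Cdk2 read -3.84 in hepatocytes against -3.18, -3.36 and -3.33 in MEFs and was not called (-0.58 ± 0.28, adjusted p = 0.135). Cdk4 was thus lower than in MEFs in both other groups, with iHep cells between hepatocytes and MEFs.

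All 6 checkpoint genes fell, with a median of -3.74, or -2.73 with Bub1 and Ttk at their bounds. Bub1, the kinase that recruits checkpoint proteins to kinetochores, read -7.13 in hepatocytes, not well above background, and was at least 54.0-fold lower than in MEFs (adjusted p = 0.000576). Its probe lies at chr2:127492693-127492752 in mm8. Bub1b read -4.45 and was 25.2-fold lower, and Ttk, at -8.05 and not well above background, was at least 5.99-fold lower. Mad2l1 read -0.13, 0.53 and 0.32 in iHep cells and -2.36 in hepatocytes, against 0.56, 0.36 and 0.41 in MEFs, and was 7.11-fold lower in hepatocytes. Chek1 read -2.20, -1.53 and -1.85 in iHep cells and -4.56 in hepatocytes, against -1.96, -1.94 and -1.88 in MEFs, and was 6.18-fold lower in hepatocytes. Brca1 fell the least, at -2.85 in hepatocytes (3.89-fold, adjusted p = 0.0116), and its call was lost with the arrays of 1 scan day.

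In all, 6 of the 49 genes had no probe well above background on the hepatocyte array while every MEF array was (8.33% of all genes), and these were Ccne2, Cdc25c, Plk4, Kif11, Bub1 and Ttk. The size of the fall of dim genes depended on the background correction. With normexp correction all 44 genes kept their call, and the class medians in hepatocyte minus MEF became -2.19 for replication, -1.85 for S phase entry, -3.95 for mitosis and -1.85 for checkpoints. The replication median stayed above the mitotic median under each of the 15 settings, at -2.86 to -2.19 for replication and -4.98 to -3.95 for mitosis.

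**Figure D4:**
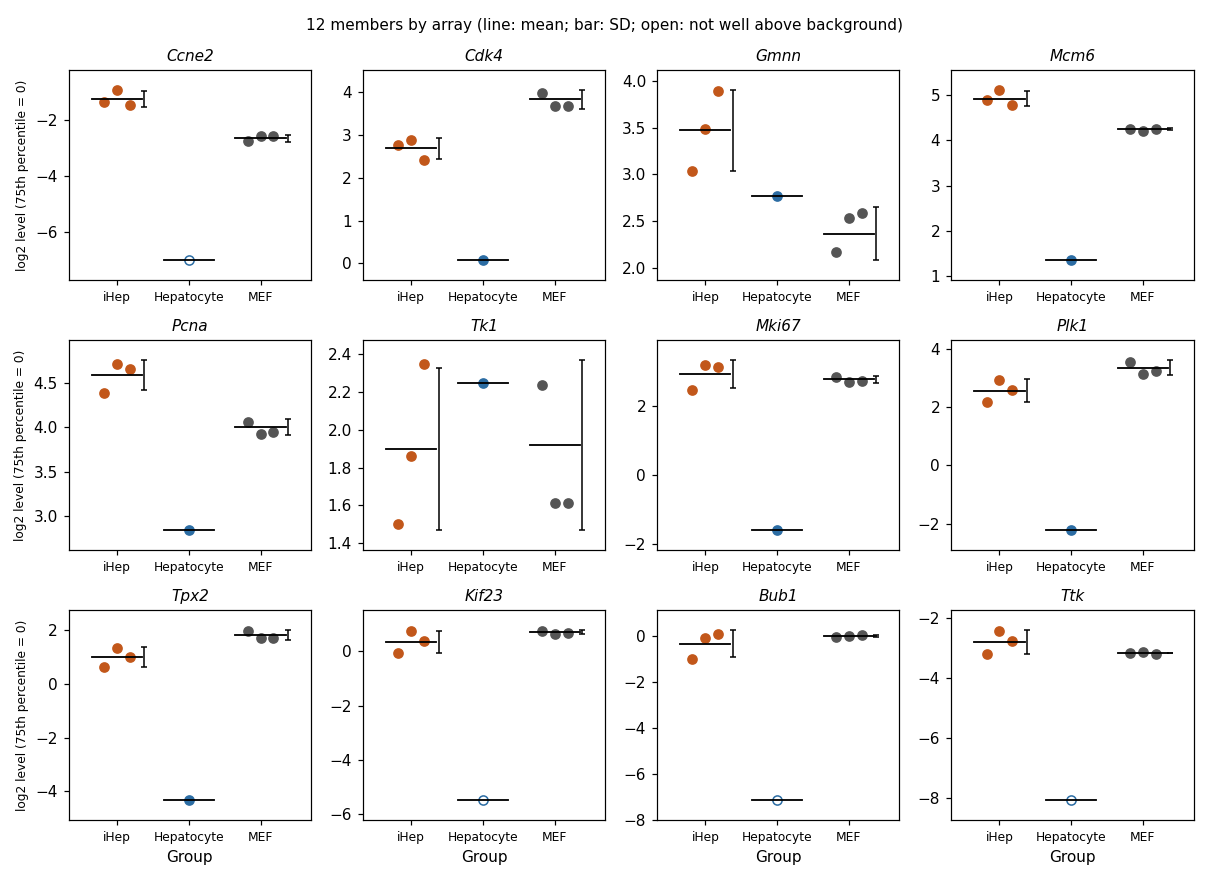
Log2 level of 12 of the genes on each array by group (iHep, hepatocyte, MEF), where 0 is the 75th percentile of the array, lines are group means, bars are SDs and open circles were not well above background. Each panel has its own scale. Ccne2 lies higher and Cdk4 lower in iHep cells than in MEFs. Gmnn and Tk1 stand on the hepatocyte array at 2.77 and 2.25, among the levels of the other groups. The brightest probes of Ccne2, Kif23, Bub1 and Ttk are open circles on the hepatocyte array.

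Set beside the hepatocyte array, iHep cells were higher in 45 of the 49 genes (22.1% of all genes were called higher) and lower in 0 (27.1% of all genes), with 45 higher and 0 lower at an unadjusted p under 0.05 too (25.4% and 31.9% of all genes). The median change was 3.77, or 3.64 with genes at their bounds, against -0.17 and -0.18 over all genes. Every iHep array stood above the hepatocyte array for 48 of the 49 genes, where 38.5% of all genes did so, and the exception was Tk1, at 1.5, 1.86 and 2.35 in iHep cells and 2.25 in hepatocytes. By role, 22 of 22 mitotic genes were higher (median 4.57), with 11 of 14 replication genes (3.11), 6 of 7 genes of S phase entry (2.61) and 6 of 6 checkpoint genes (3.40). At the bounds the mitotic median was 4.48 and the checkpoint median 2.84. Bub1 was at least 43.4-fold higher in iHep cells, Kif23 by its measured probe 35.7-fold and Cdk1 41.6-fold (5.38 ± 0.39, adjusted p = 0.000687). Mki67 was 22.9-fold and Pcna 3.36-fold higher in iHep cells. The 4 genes not called were Gmnn, Tyms, Tk1 and Cdk2. This comparison and that of hepatocytes with MEFs share the single hepatocyte array, so their counts are not independent.

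Markers of other liver cells differed between some of the groups, and their part in the result was not tested. Of 9 macrophage markers, 4, 4 and 3 were well above background in iHep types 4α1, 4α2 and 4α3, 9 on the hepatocyte array and 8 on each MEF array, with summed log2 levels of -1.66 to -0.90 in iHep cells, 2.97 in hepatocytes and 2.23 to 2.97 in MEFs. No iHep type had Adgre1, C1qa, C1qc, Clec4f or Ptprc well above background, and no MEF array had Clec4f, a Kupffer cell lectin, well above it. Of 7 endothelial markers, 2 were well above background on each iHep array, 7 on the hepatocyte array and 4 or 5 on the MEF arrays, with summed log2 levels of -2.16 to 1.21 in iHep cells, 2.71 in hepatocytes and 0.92 to 1.60 in MEFs. No iHep or MEF array had Pecam1 or Cdh5 well above background. Fibroblast markers were well above background for 10 of 10 genes on every iHep and MEF array and 8 of 10 on the hepatocyte array, where Thy1 and Twist1 were not, with a summed log2 level of 3.56 in hepatocytes.

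The other genes of the pathway, 173 genes of replication, S phase entry, mitosis and checkpoints of which 170 were tested, are given by their counts and their ends. In iHep cells against MEFs 8 were called higher and 3 lower (10.1% and 13.2% of all genes), with a median of -0.03. In hepatocytes against MEFs 115 were called lower and 9 higher, where 25.1% and 28.4% of all genes were. The median there was -2.29, or -2.26 at the bounds. By role 59 of 70 mitotic, 28 of 50 replication, 10 of 23 S phase entry and 18 of 27 checkpoint genes were lower in hepatocytes. The highest in iHep cells against MEFs was E2f2, another activator of S phase genes, at 0.62, 1.22 and 0.97 in iHep cells against -1.49, -1.81 and -1.83 in MEFs (2.59 ± 0.26, 6.04-fold, adjusted p = 0.00392). It was followed by Dck, deoxycytidine kinase (1.33 ± 0.20), and Pold3, a subunit of DNA polymerase delta (1.02 ± 0.25), a shift that was smaller in its other 2 probes. The lowest were Trp53bp1, a repair factor at double-strand breaks (-1.09 ± 0.24), Ccnd3, cyclin D3 (-1.03 ± 0.26), and Rad9a, part of a checkpoint clamp (-0.92 ± 0.20). E2f1 and E2f2 thus lay on opposite sides of MEFs, and only E2f2 was called.

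In hepatocytes the lowest fitted changes among these other genes were those of Ccnd2, cyclin D2, at -1.70 against 5.97, 6.10 and 6.02 in MEFs (210.3-fold lower, -7.72 ± 0.37), and the cytokinesis gene Cep55 and the spindle gene Dlgap5, which were not well above background there and were at least 34.9-fold and 26.0-fold lower. Since these are bounds, the order is not settled: Uhrf1, a factor of DNA methylation at replication forks, chosen after its values were seen, was measured above background and was 54.9-fold lower. Some genes went the other way. Mcm10, which helps to start replication forks, read 5.42 on the hepatocyte array against 0.90, 0.89 and 0.89 in MEFs (4.52 ± 0.31, 23-fold higher, 1 probe), and 1.43, 1.94 and 1.84 in iHep cells. Cdca2, a regulator of a mitotic phosphatase, was higher in hepatocytes by its brightest probe (5.82 against 1.36, 1.07 and 1.18 in MEFs), but its other 2 probes were lower there, so the direction for Cdca2 is uncertain. Against hepatocytes, Cep55 was at least 59.8-fold higher in iHep cells, Ccnd2 162.4-fold and the mitotic kinase Pbk 85.4-fold, and Cdca2 and Mcm10 were among the lowest.

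The 40 genes with a promoter in the table differed by motif in the size of the fall, as a description, since the motifs follow the roles. The 15 genes with a CHR had a median change of -4.66 in hepatocyte minus MEF (-4.65 at the bounds), and the 25 without had -2.89. The split by CCAAT box was of similar size. The 28 genes with a CCAAT box had a median of -4.47 (-4.13 at the bounds), and the 12 without had -2.73. The 8 genes with an E2F match had a median of -2.84, and the 32 without had -3.89 (-3.70 at the bounds). In iHep minus MEF the 8 genes with an E2F match had a median of 0.38 and the other 32 of -0.24. Genes with and without a CHR had -0.15 and -0.16 there, and genes with and without a CCAAT box had -0.12 and -0.21.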

How the data were processed

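RNA of 7 samples was read on 7 single-colour arrays of 43379 spots each. Per the file headers, the software was Agilent Feature Extraction 9.5.1.1, and the deposited processed signal is a background-subtracted intensity that was not scaled between arrays. The deposited mean and local background signals, also intensity values, served only the normexp alternative. The deposited flags are 0 or 1 values of unit other, set for saturation, for outliers and for signal well above background. A table of intensity values from the authors, with column medians of 66.3 to 66.4, served as an alternative. Across probes its log2 values followed the scanner files of the matching arrays (r from 0.99882 to 0.99989), which settles scale and direction, but the sources used here do not say how it was normalized.

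Outlier spots (66 to 104 per array) were left out, spots of a probe were averaged, and log2 signal was taken relative to the 75th percentile of its array. Probes were named through the GRCm38.p6 table by accession (24358), symbol (6292) or synonym (2422). Another 7805 kept the name in the file and 261 had none. The brightest probe over all arrays stood for a gene. Among the 49 genes, 22 further probes were well above background on 6 or more arrays, and all 22 lay within 0.5 log2 units of the standing probe in iHep minus MEF (largest gap 0.46) and had its sign in hepatocyte minus MEF. No probe of the set was saturated, and Cdk1 was named by its current symbol only. Of 27583 genes and unnamed probes, 19135 were tested, namely those that a whole group (all its arrays) showed well above background. Probe positions are those of the array's annotation in mm8, whose exons were not used here.

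For MEF 2 minus MEF 3, the robust SD of the log2 values was 0.925, 0.894, 0.646 and 0.501 times what repeated spots predict, in classes of rising signal, while for MEF 1 against MEF 2 it was 3.85 to 4.54 times. For this reason these 2 arrays were averaged to 1 sample. Over the 49 genes MEF 1 minus their mean had a median of 0.12 and a range of -0.63 to 0.69.

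All 3 groups entered 1 fit in limma 3.58.1 under R 4.3.3 (lmFit and eBayes, 3 residual degrees of freedom), with p-values adjusted by Benjamini-Hochberg across the 19135 genes and a threshold of 0.05. Every adjusted p is limma's. The fit was also run on simulated data in which all groups had the same spread. That run cannot check the spread assumed for the single hepatocyte array, or effects of the slide. The small number of arrays limits the precision. A fold against hepatocytes whose array showed no probe of the gene well above background is an approximate lower bound. It sets the brighter mean against the higher of the gene's own level and the lowest level counted as well above background there (-5.76). The fitted log2 change is then not a bound. The bounds are approximate because some probes above -5.76 were not well above background either. These include probes of Plk4 at -5.62 and Kif23 at -5.48. Promoters were searched for exact letters on both strands.

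The 49 genes, the other pathway lists and the marker lists were chosen with earlier results of these data known. All 49 are accounted for. Levels on every array are given for Mki67, Top2a, Pcna, Ccnb1, Cdk1, Cdk4, Mcm2 and, per role and comparison, the 2 highest and 2 lowest changes. Of the other pathway genes, the 3 highest and 3 lowest called changes per comparison are named, except for 1 gene that is not reported here. Epithelial markers were well above background for 7 of 7 genes on every iHep array and on the hepatocyte array and for 4 on each MEF array, and bile duct markers for 5 of 5, 5 and 4. There were 0 columns of values without a sample. Alternatives were 3 separate MEF samples, quantile normalization, normexp, the authors' table and no filter on dim probes. Others were the median of all probes of a gene, slide as a block, slide 1 alone and only the groups compared. Each iHep or MEF array was also left out in turn, but the single hepatocyte array could not be. An alternative with the arrays of 1 scan day was added after seeing the data. It leaves out MEF 2 and MEF 3, so MEF 1 is its only MEF sample.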

Additional observations from a re-analysis of the deposited data

How the results depend on the processing

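In iHep cells against MEFs, counts of called genes were unstable. The reported counts among the 49 genes were 1 higher and 1 lower. They became 5 and 6 with 3 separate MEF samples, 5 and 3 with normexp, 2 and 1 with quantile normalization and with the authors' table, and 0 and 0 with slide as a block or within slide 1. Leaving out 1 array gave 0 to 1 higher and 0 to 1 lower. Without MEF 1 both were 0. Over all genes, 1924 were higher and 2535 lower, against 3158 and 4149 with 3 MEF samples and 754 and 917 with slide as a block or within slide 1. Leaving out 1 array gave 685 to 2093 higher and 959 to 2555 lower, the lowest of both without MEF 1. The slide settings and that without MEF 1 have fewer MEF samples, and otherwise the cause was not tested. The calls for Ccne2 and Cdk4 held under 12 and 10 of 15 alternatives, with log2 changes of 0.96 to 1.51 and -1.29 to -0.99 and adjusted p of 0.00295 to 0.104 and 0.00652 to 0.144. These 15 alternatives are not all separate checks. Slide as a block and slide 1 alone gave the same values for both genes, and using only the groups compared repeated the reported fit. The median of the 49 genes was -0.28 to 0.02 when 1 array was left out. Another 13 genes changed sign under some alternative, none of them called in either setting.

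In hepatocytes against MEFs, 41 of 44 calls held under every alternative. Pcna and Cenpa lost theirs without MEF 1 and on 1 scan day, and Brca1 on 1 scan day. Both settings leave MEF with 1 sample. The median of the 49 genes was -2.94 with normexp, against -3.90, and -3.91 to -3.70 when 1 iHep or MEF array was left out. In iHep cells against hepatocytes, 43 of 45 calls held under every alternative, the exceptions being Cdt1 and Cenpa, and the median was 3.10 with normexp, against 3.77. The cause was not tested. Quantile normalization moved the median of all genes to 0.00 from 0.14 in hepatocyte minus MEF and to 0.02 from -0.17 in iHep minus hepatocyte. No paired analysis was possible because the iHep numbers name types, not replicates shared with the MEF arrays. Low signal limits the 6 genes with no probe well above background in hepatocytes to approximate lower bounds.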
